A study of Mus musculus with 12 samples.

Results

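The 7 genes described here encode the positive arm of the circadian clock (Arntl, Clock and Npas2) and transcriptional repressors tied to it (Bhlhe40, Bhlhe41, Ciart and Nfil3). They were picked by symbol from the 50563 genes of a raw count table of cortical RNA-Seq, with results of the comparison between DPAn-6 and CTRL mice already known, so their values in that comparison are a description of these mice and not an independent test. All 7 were among the 15688 genes tested, with 87 to 4610 counts per mouse, so low counts decided nothing about which of them could be examined.

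RNA-Seq libraries were made from the cerebral cortex of 12 E4FAD mice, 1 library per mouse. Every mouse, control or treated, was APOE4+/+ and 5FAD-/+: it carried human APOE4 in place of the mouse Apoe gene, together with the 5xFAD transgenes, which are driven by the neuronal Thy1 promoter. The DPAn-6 group (n = 5, with 2 mice of 12 months and 3 of 14 months) received docosapentaenoic acid of the n-6 series by oral gavage every day for 3 weeks, at 700 mg/kg. The CTRL group (n = 7, with 2 mice of 12 months and 5 of 14 months) received the vehicle, and the antioxidants in it were given to both groups. Both groups held female and male mice, but the sex of a single mouse is not given in its labels, and the hour at which tissue was collected is not given in the sources used here.

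In the circadian clock, ARNTL, better known as BMAL1, pairs with CLOCK or its relative NPAS2 on E-box sequences and switches on the Per and Cry genes, whose proteins then block the pair. BHLHE40 and BHLHE41 (DEC1 and DEC2) bind E-boxes as repressors, CIART (CHRONO) represses through BMAL1, and NFIL3 (E4BP4) competes on D-boxes with the activators DBP, TEF and HLF. A further loop sets Arntl itself, which the REV-ERB receptors repress and the ROR receptors activate through ROR elements. The transcripts of both arms cycle over the day in brain and liver, with Arntl out of phase with Per2 and Dbp.

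Promoter sequences show where these loops have their letters. In the RefSeq table of GRCm38.p6 promoters, which covers 250 bases before to 50 bases after a start site, 6 of the 7 genes were matched, Bhlhe40 being the exception. Both strands were searched for the E-box CACGTG, the D-box TTANGTAA and the ROR element GTAGGTNA. Of the 32851 promoters in the table, 7.15% held such an E-box, 2.32% a D-box and 2.14% a ROR element. Ciart and Bhlhe41, the genes with an E-box, are shown on the minus strand up to the annotated gene start, at chr3:95882252-95882478 and chr6:145865559-145865670, with E-boxes in capitals.
Ciart: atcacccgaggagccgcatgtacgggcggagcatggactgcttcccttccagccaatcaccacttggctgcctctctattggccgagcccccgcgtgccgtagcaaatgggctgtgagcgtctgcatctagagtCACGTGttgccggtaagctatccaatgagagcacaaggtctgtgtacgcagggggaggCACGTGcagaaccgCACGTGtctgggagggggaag
Bhlhe41: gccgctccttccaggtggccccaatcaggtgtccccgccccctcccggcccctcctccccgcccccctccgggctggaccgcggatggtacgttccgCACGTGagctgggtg
The Ciart stretch held 3 E-boxes and the Bhlhe41 stretch held 1. Arntl and Nfil3 each held ROR elements near the start site, shown in capitals in windows of 30 bases. The pair in Arntl lies on the plus strand, in windows chr7:113207493-113207522 and chr7:113207529-113207558. The element of Nfil3, in window chr13:52981033-52981062, is read from the minus strand and carries the motif on the opposite strand, so its capitals are the reverse complement of the motif.
Arntl, first window: ttggtcggaaaGTAGGTTAgtggtgcgaca
Arntl, second window: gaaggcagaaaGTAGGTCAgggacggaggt
Nfil3: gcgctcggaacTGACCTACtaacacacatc
No match to these motifs was found in the Clock and Npas2 windows. A match describes letters only, and binding was not measured in these mice.

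Total counts on genes ranged from 15339098 to 19500154 in CTRL mice and from 15208803 to 26520251 in DPAn-6 mice. CTRL replicate 3 stood apart from the rest. A slope on exon length was fitted in each library to the deviation of log2 CPM from each gene's mean over the 12 libraries. For CTRL replicate 3 this slope was 0.156 per doubling of length, against -0.0521 to 0.0183 in the other 11 libraries. The mean correlation of CTRL replicate 3 with the other libraries was 0.963, against 0.980 to 0.986. Ttr, the transthyretin gene of the choroid plexus, ranged from 2.59 to 10.58 log2 CPM in CTRL mice and from 0.87 to 3.88 log2 CPM in DPAn-6 mice. Log2 CPM (CPM, counts scaled to a common library total) was taken with a pseudocount of 0.5 added to the count. Log2 fold changes are DPAn-6 minus CTRL from edgeR's quasi-likelihood test over all genes, with a Benjamini-Hochberg adjusted p, and a gene is called when that p is below 0.05.

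Of the 7 genes, Arntl was higher and Bhlhe41 lower in DPAn-6 mice with an adjusted p below 0.05. These were 2 of 7 genes called, where 1.55% of all genes tested were called, 0.408% higher and 1.14% lower. For 3 genes (Arntl, Bhlhe41 and Nfil3) the 5 DPAn-6 values did not overlap the 7 CTRL values, as was the case for 3.22% of all genes tested, 1.73% with DPAn-6 higher and 1.49% with DPAn-6 lower. Because the contrast itself chose the genes, nothing is read from these shares. The median log2 fold change of the 7 genes was 0.03, and that of all genes tested was -0.00.

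**Figure D1:**
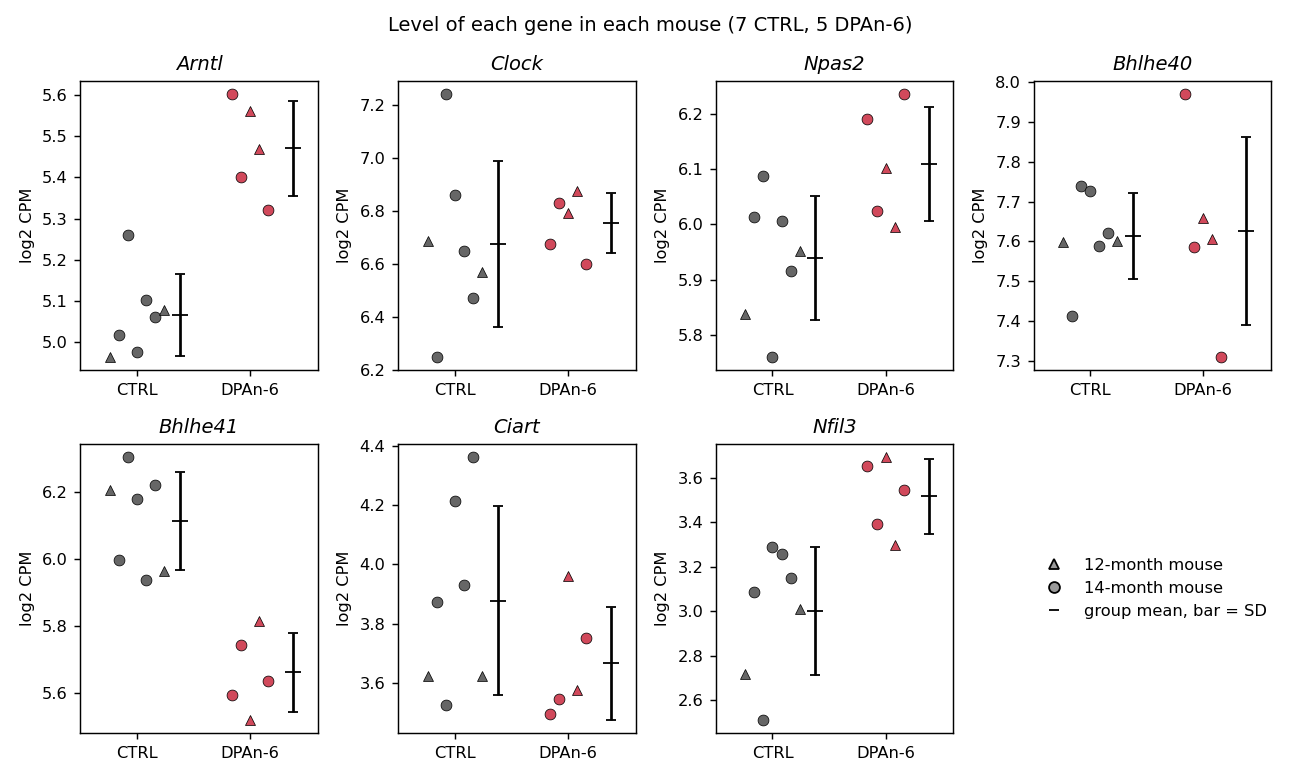
Level of each of the 7 genes in every mouse, in log2 CPM on the vertical axis, with CTRL (n = 7) and DPAn-6 (n = 5) side by side and the mean ± SD marked. The groups are apart for Arntl, Bhlhe41 and Nfil3, and overlap for Clock, Npas2, Bhlhe40 and Ciart.

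Arntl, the obligate partner of the positive arm, lies at chromosome 7, 113207465 to 113314126, plus strand (ENSMUSG00000055116, GRCm38). In CTRL mice it ranged from 4.96 to 5.26 log2 CPM with a median of 5.06. In DPAn-6 mice its log2 CPM was 5.60, 5.40, 5.56, 5.47 and 5.32. Every DPAn-6 mouse was above every CTRL mouse, with CTRL replicate 3 the nearest of the controls. Means ± SD were 5.07 ± 0.10 for the controls and 5.47 ± 0.12 for the treated mice, and edgeR gave a log2 fold change of 0.38 (SE 0.08), or 1.30-fold, with an adjusted p of 0.0240. On TMM-scaled totals CTRL replicate 3 reached 5.32 and DPAn-6 replicate 5 stood at 5.30, so that the groups overlapped by 0.02.

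The Arntl difference was 0.49 log2 in 12-month mice (2 CTRL, 2 DPAn-6) and 0.36 log2 in 14-month mice (5 CTRL, 3 DPAn-6). With every DPAn-6 mouse above every CTRL mouse on library totals, no age split could overlap or turn its direction. The split by age is therefore no further support for the difference. The call was not firm. The edgeR adjusted p was above 0.05 when CTRL replicates 1 (0.0554), 4 (0.0534) or 6 (0.0504) were left out in turn. The same held for replicates 1 (0.0818), 3 (0.0916) and 4 (0.0663) of the treated mice. With Ttr as a covariate the log2 fold change was 0.41 (SE 0.11) and the edgeR adjusted p was 0.246. Ttr itself had a log2 fold change of -6.01 (SE 1.46), so this covariate overlapped with treatment. The part of Ttr in the Arntl difference was not tested.

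Clock, which encodes the usual partner of BMAL1, lies on chromosome 5, 76209868 to 76304792, minus strand (ENSMUSG00000029238). Its level in CTRL mice ran from 6.25 to 7.24 log2 CPM, with a median of 6.65. The DPAn-6 mice had 6.68, 6.83, 6.79, 6.88 and 6.60 log2 CPM. All DPAn-6 values lay inside the CTRL range, whose top was CTRL replicate 3 and whose bottom was CTRL replicate 2. The log2 fold change was 0.03 (SE 0.14, adjusted p = 0.962 by edgeR). Clock has the longest exon length of the 7 genes, 13727 bases, and its plot against each library's length slope places CTRL replicate 3 at the far end on both axes. Without that library the log2 fold change was 0.15, and with each library's trend on exon length and GC content removed it was 0.15 with an adjusted p of 0.141.

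Npas2, which can take the place of CLOCK beside BMAL1 and is abundant in forebrain, lies at chromosome 1, 39193731 to 39363236, plus strand (ENSMUSG00000026077). CTRL mice had 5.76 to 6.09 log2 CPM (median 5.95). DPAn-6 mice had 6.19, 6.02, 6.10, 5.99 and 6.23 log2 CPM. All 5 were above the CTRL mean of 5.94 but overlapped the upper CTRL mice. The log2 fold change of 0.15 (SE 0.07) had an edgeR adjusted p of 0.385. It was 0.25 with Ttr as a covariate (adjusted p = 0.526 by edgeR) and 0.23 without the 3 CTRL libraries highest in Ttr (adjusted p = 0.0628 by edgeR).

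Among the repressors, Bhlhe40 and Bhlhe41 are close relatives, and of the pair Bhlhe41 was called and Bhlhe40 was not. Bhlhe41, on chromosome 6, 145858243 to 145865558, minus strand (ENSMUSG00000030256), ranged from 5.94 to 6.31 log2 CPM in CTRL mice with a median of 6.18. Its DPAn-6 values were 5.60, 5.74, 5.52, 5.81 and 5.64 log2 CPM. No DPAn-6 mouse reached the lowest CTRL mouse, also on TMM-scaled totals. With means of 6.12 ± 0.15 and 5.66 ± 0.12, the log2 fold change was -0.48 (SE 0.09), or 1.40-fold lower, with an edgeR adjusted p of 0.0134. The difference was -0.42 log2 in 12-month mice (2 CTRL, 2 DPAn-6) and -0.47 log2 in 14-month mice. With every DPAn-6 mouse below every CTRL mouse, neither age could show an overlap, so the split adds no support. Without DPAn-6 replicate 3 the edgeR adjusted p was 0.0610. With Ttr as a covariate, which overlapped with treatment, it was 0.116 at a log2 fold change of -0.55 (SE 0.12).

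Bhlhe40, on the same chromosome at 108660629 to 108666925, plus strand (ENSMUSG00000030103), had 7.41 to 7.74 log2 CPM in CTRL mice (median 7.60). The DPAn-6 mice had 7.97, 7.59, 7.66, 7.61 and 7.31 log2 CPM. The DPAn-6 group held both the highest and the lowest mouse of all 12. The log2 fold change was 0.00 (SE 0.10, adjusted p = 0.998 by edgeR), and its sign depended on the fit. As a ratio chosen after the values were seen, the log2 count ratio of Bhlhe41 to Bhlhe40 went from -1.50 ± 0.11 in CTRL to -1.96 ± 0.29 in DPAn-6, without overlap. Bhlhe41 alone was already apart between the groups, so this ratio is not a further result.

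Some microglial markers were lower beside Bhlhe41. All 12 of 12 had a negative log2 fold change, with a median of -0.48, and 4 of them, named after their values were seen (Tmem119, Csf1r, C1qb and C1qc), were called lower, where 1.14% of all genes tested were. The other 8 did not pass the test. Their summed level was 1133 to 1698 CPM in CTRL mice and 777 to 1108 CPM in DPAn-6 mice, with no marker at 0. The part of this in the Bhlhe41 difference was not tested, and in bulk tissue fewer cells of a type and less RNA per cell cannot be told apart. Markers of excitatory neurons had a median of 0.01, those of inhibitory neurons 0.20 with 0 of 8 called by edgeR, and those of astrocytes -0.11.

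Ciart, on chromosome 3, 95878503 to 95882251, minus strand (ENSMUSG00000038550), is an E-box target as well as a repressor of the positive arm. It ranged from 3.52 to 4.36 log2 CPM in CTRL mice with a median of 3.87. The DPAn-6 mice had 3.50, 3.55, 3.96, 3.58 and 3.75 log2 CPM. The groups overlapped broadly, and the lowest value was in DPAn-6 replicate 1. The log2 fold change was -0.25 (SE 0.15, adjusted p = 0.465 by edgeR). Its sign differed between the ages, at 0.15 log2 in 12-month mice and -0.38 log2 in 14-month mice, the difference was -0.16 without CTRL replicate 6, and the interaction of treatment and age was -0.59 (SE 0.28) with an adjusted p of 0.905.

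Nfil3, on chromosome 13, 52967209 to 52981073, minus strand (ENSMUSG00000056749), had the lowest counts of the 7 genes, 87 to 186 in CTRL mice and 149 to 309 in DPAn-6 mice. Its CTRL level was 2.51 to 3.29 log2 CPM with a median of 3.09. The DPAn-6 level was 3.65, 3.39, 3.69, 3.30 and 3.54 log2 CPM. Every DPAn-6 mouse lay above every CTRL mouse, but DPAn-6 replicate 4 cleared CTRL replicate 4 by only 0.01. On TMM-scaled totals the gap between the groups was 0.0003 log2, which is next to none. The log2 fold change was 0.48 (SE 0.13), or 1.39-fold, with an edgeR adjusted p of 0.0834, which missed the threshold. It was 0.63 log2 in 12-month mice and 0.47 log2 in 14-month mice, where the groups had to be apart as they were over all mice. Of 27 alternative fits 3 called it: DESeq2 (adjusted p = 0.0148), edgeR without CTRL replicate 3 (0.0321) and edgeR after the length and GC trend was taken out (0.0328). The other 24 did not, with edgeR adjusted p-values up to 0.466, in 14-month mice only. On simulated data DESeq2 made a larger share of false calls than edgeR. Those counts were drawn with dispersions estimated by edgeR and with changes of 1 log2, so they cannot judge the Nfil3 call.

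The rest of the clock was taken from a list of 23 genes, all of them tested. It was set with earlier results of these data known, so the share called is a description. By edgeR 0 were called higher and 3 were called lower, where 0.408% of all genes tested were called higher and 1.14% lower, while 15 had a negative and 8 a positive log2 fold change, with a median of -0.09. The 3 were Per2 and Per3, whose proteins block the BMAL1 pair, and Dbp, the D-box activator that NFIL3 competes with. Per2 stood at 5.97 to 6.29 log2 CPM in CTRL mice and 5.16 to 5.71 in treated mice. The difference was a log2 fold change of -0.68 (SE 0.09, adjusted p = 0.00302 by edgeR), with no overlap. Per3 had a log2 fold change of -0.63 (SE 0.10, adjusted p = 0.00551 by edgeR), also with no overlap. With Ttr as a covariate neither was called (adjusted p = 0.110 for Per2 and 0.116 for Per3 by edgeR). Their log2 fold changes in that fit were -0.56 for Per2 and -0.60 for Per3. Dbp had -0.51 (SE 0.12, adjusted p = 0.0496 by edgeR). Its groups overlapped only through CTRL replicate 3, at 6.09 log2 CPM. The other CTRL mice were at 6.73 or above and the DPAn-6 mice at 6.47 or below. Dbp stayed called in 9 of 27 alternative fits, not in limma-voom (0.0650). With 1 mouse left out its edgeR adjusted p was 0.000314 to 0.155.

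Per1 and the REV-ERB genes did not pass. Per1 had a log2 fold change of 0.01 (SE 0.13). Nr1d1, which encodes REV-ERBα, the repressor of Arntl, had 0.21 (SE 0.10, adjusted p = 0.353 by edgeR). It was called without CTRL replicate 3 (0.30, adjusted p = 0.00894 by edgeR) and without the 3 CTRL libraries highest in Ttr (0.29, adjusted p = 0.0133 by edgeR). Of the 10 genes for clock protein turnover and partners 0 were called, and of the 5 receptors of the ROR element 0 were called. Nr1d2, which encodes REV-ERBβ, had -0.28 (SE 0.12, adjusted p = 0.271 by edgeR), and -0.25 after correction for exon length and GC (adjusted p = 0.0174 by edgeR). The median of the 10 turnover genes was 0.06, against -0.35 for the 5 genes of the negative arm and -0.37 for Dbp, Tef and Hlf.

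**Figure D2:**
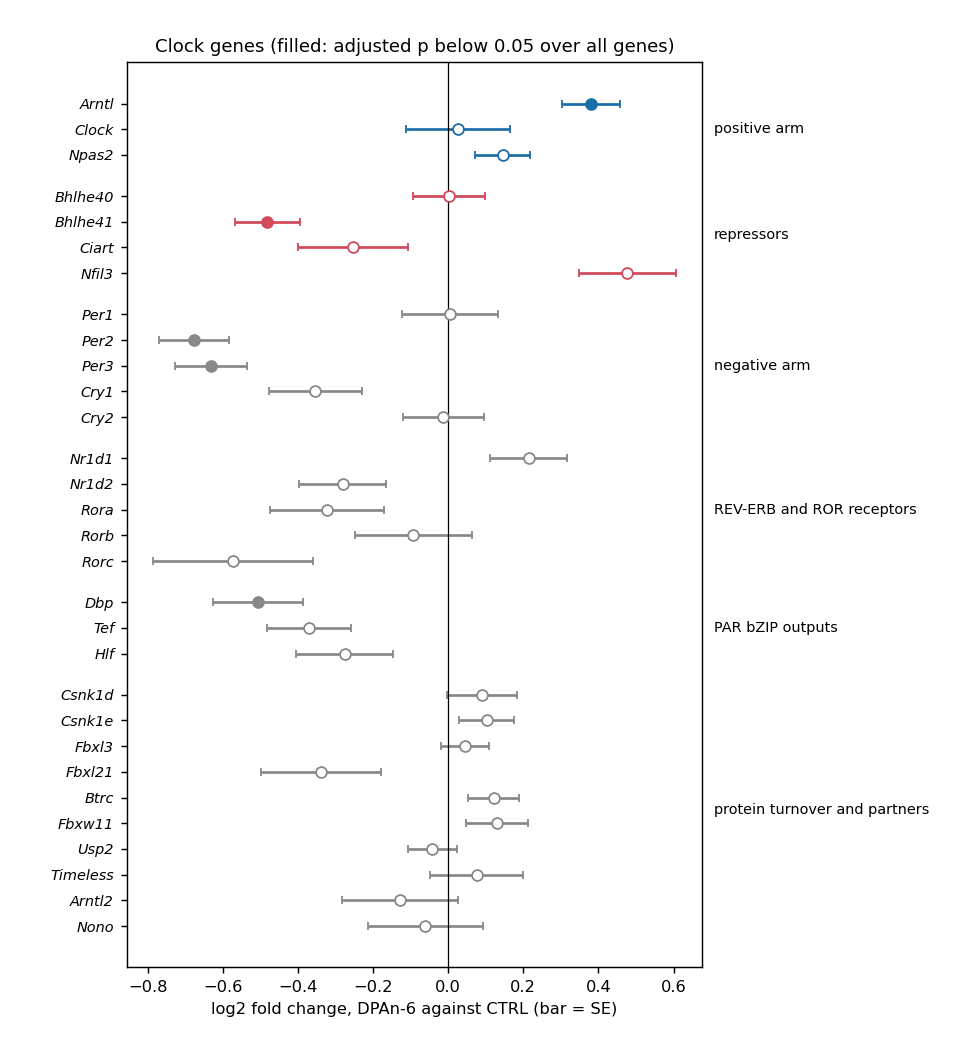
Log2 fold change of DPAn-6 against CTRL with its standard error (horizontal axis) for the 7 genes and the other 23 clock genes (rows), from edgeR. Arntl lies on the positive side and Bhlhe41, Per2, Per3 and Dbp on the negative side with an adjusted p below 0.05.

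Pairs of genes were also set as log2 ratios of raw counts within a mouse, a choice made after the values were seen. These ratios carry the exon lengths of both genes, so they compare groups and not the levels of the pair. The log2 count ratio of Arntl to Per2 was -1.03 ± 0.16 (SD) among the 7 controls and 0.03 ± 0.11 (SD) among the 5 treated mice. The CTRL range of -1.22 to -0.79 lay wholly below the DPAn-6 range of -0.11 to 0.16. These ranges had to be apart, because neither Arntl nor Per2 overlapped between the groups and they differed in opposite directions. The ratio is therefore not a further result. For the D-box rivals Nfil3 and Dbp the log2 ratio was -3.73 ± 0.24 in CTRL and -2.75 ± 0.27 in DPAn-6, and these ranges were apart too. Nfil3 alone was already apart, so this ratio is not a further result either. Per length, Arntl averaged 4.46 RPKM and Per2 11.7 RPKM in CTRL mice, against 5.91 and 7.44 RPKM in DPAn-6 mice. The ratio of Npas2 to Clock overlapped, at -0.74 ± 0.32 and -0.65 ± 0.22.

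Age was examined as a measure that did not choose the genes. Between the 8 mice of 14 months and the 4 of 12 months, with treatment in the fit, edgeR called 0 of the 7 genes, and 0 had an unadjusted p below 0.05. Over all genes 0.0% were called and 279, or 1.78%, had an unadjusted p below 0.05, and DESeq2 and limma-voom called 0 as well. The log2 difference of the 7 genes (14 minus 12 months) lay between -0.00 for Clock (SE 0.15) and 0.12 for Nfil3 (SE 0.14) and Ciart (SE 0.16). For Arntl it was 0.00 (SE 0.09) and for Bhlhe41 0.02 (SE 0.09). The interaction of treatment and age was called for 0 of the 7 genes, with 0.00637% of all genes called. There 0 of the 7 had an unadjusted p below 0.05 by edgeR, as 4.26% of all genes did, and the smallest was that of Ciart.

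Levels between genes were compared per length, as RPKM, the CPM divided by the exon length in kilobases. In CTRL mice Bhlhe40 led with 41.7 ± 3.05 RPKM (SD, n = 7), followed by Npas2 with 12.8 ± 0.979 and Bhlhe41 with 10.4 ± 1.04. Clock had 7.61 ± 1.76, Ciart 6.63 ± 1.52, Arntl 4.46 ± 0.318 and Nfil3 4.01 ± 0.747 RPKM. Only Bhlhe40 was apart from its next neighbour, although Npas2 exceeded Bhlhe41 in 7 of 7 mice. In DPAn-6 mice (n = 5) the order was Bhlhe40 at 42.4 ± 7.01, Npas2 at 14.4 ± 1.04, Clock at 7.88 ± 0.612, Bhlhe41 at 7.55 ± 0.617, Arntl at 5.91 ± 0.469, Nfil3 at 5.67 ± 0.657 and Ciart at 5.64 ± 0.780 RPKM. There the ranges were apart between Bhlhe40 and Npas2, between Npas2 and Clock, and between Bhlhe41 and Arntl.

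**Figure D3:**
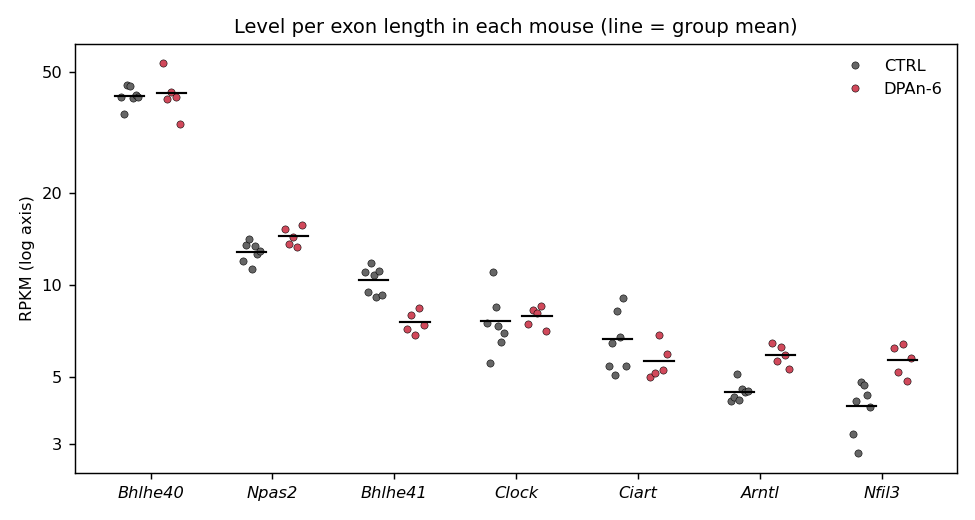
Level of the 7 genes per length, in RPKM on a log axis, for each CTRL (n = 7) and DPAn-6 (n = 5) mouse, in the order of the CTRL means. Bhlhe40 stands above the rest in both groups, at 41.7 and 42.4 RPKM.

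Within the groups, the deviations of each gene from its group mean were correlated over the 12 mice. Of 21 pairs, 4 had an unadjusted p below 0.05 by permutation and 0 passed after adjustment. Ciart and Nfil3 had Pearson's r = 0.723 (permutation p = 0.0212, adjusted 0.217) and Spearman's rho = 0.711 (permutation p = 0.0243, adjusted 0.510). Without CTRL replicates 4 and 6 their r was 0.709. Arntl and Bhlhe40 had r = 0.678 (permutation p = 0.0215, adjusted 0.217) and rho = 0.447 (permutation p = 0.199), with r of 0.499 without DPAn-6 replicates 1 and 3. Bhlhe41 and Nfil3 had r = -0.658 (permutation p = 0.0344, adjusted 0.217) and rho = -0.605 (permutation p = 0.0682), with r of -0.435 without replicate 3 of either group. Clock and Bhlhe40 had r = 0.456 (permutation p = 0.0414, adjusted 0.217) and rho = 0.526 (permutation p = 0.121). Their r fell to 0.235 without CTRL replicates 2 and 3. The 2 mice left out were picked by the level of the first-named gene across both groups, not by deviation within a group. For Arntl and Ciart this kept CTRL replicate 3, and for Bhlhe41 CTRL replicate 5. Each lay farther from its group mean than a mouse left out. For these pairs r without 2 mice therefore does not show the weight of within-group outliers. After adjustment no pair is shown to vary together in these mice.

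**Figure D4:**
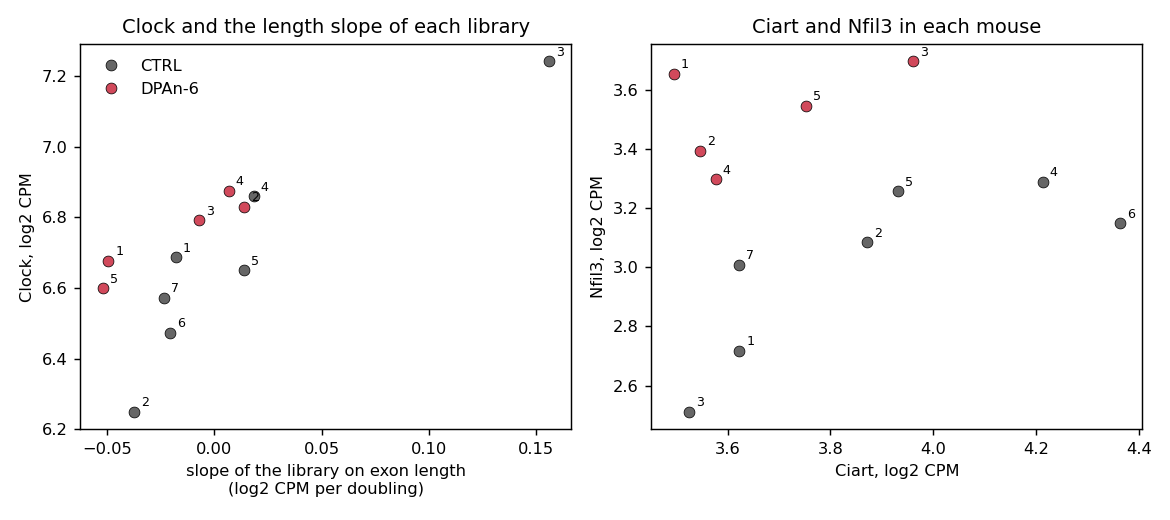
Left, log2 CPM of Clock against the slope of each library on exon length, with CTRL replicate 3 at 7.24 log2 CPM and a slope of 0.156. The slope was fitted to deviations of log2 CPM from each gene's mean over the libraries. Right, log2 CPM of Nfil3 against log2 CPM of Ciart for the 12 mice. The within-group r of 0.723 was taken on deviations from the group means, which are not what is plotted. Points are mice, coloured by group.

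Across 14434 genes with a mean of at least 1 CPM, the closest within-group patterns over the 12 mice were listed for each gene as a description, from points that share libraries. For Arntl they were Pdzrn3 (r = 0.915), Prdm8 (0.908) and Ntng1 (0.892). For Bhlhe41 they were Il13ra1 (0.888), Trim59 (0.881) and Nfe2l3 (0.879). For Nfil3 they were Tagln (0.937), Sidt1 (0.926) and Depp1 (0.922). Those of Clock were all close to 1, with Vps35 (0.988), Mllt3 (0.988) and Atf2 (0.987), and its largest deviation was that of CTRL replicate 3. For Npas2 they were Phf12 (0.928), Pdk2 (0.918) and Rph3a (0.913). Those of Bhlhe40 were Zfp174 (0.872), Osbpl3 (0.858) and Trib2 (0.852), and those of Ciart were Gm42688 (0.897), Ica1 (0.888) and Gne (0.873).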

How the data were processed

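The authors made poly(A)-selected libraries with a KAPA mRNA kit, aligned the reads with STAR 2.5.3a to GRCm38 with Ensembl annotation (mm10, per the submitters' processing notes) and deposited the counts per gene as raw values. The strand setting of the counting is not given in the sources used here. Gene names, positions and exon lengths came from GENCODE M21, which matched 50339 of 50563 identifiers, and promoter sequences from RefSeq (GRCm38.p6).

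From the deposited counts, log2 CPM was computed with a pseudocount of 0.5. The treatment, age and interaction fits used edgeR 4.0.16 in R 4.3.3 (TMM, filterByExpr by group, glmQLFTest) over 15688 genes, with Benjamini-Hochberg adjustment. DESeq2 1.42.0 and limma-voom (limma 3.58.1) were alternatives, and the study's methods name limma-voom. Other alternatives were DESeq2 size factors or plain totals as scaling, other filters on low counts (none, or 1 CPM in 5 mice), age, Xist or Ttr as covariate, 14-month mice only, and each mouse left out in turn. For the correlations they were TMM-scaled values, a pseudocount of 1, Spearman's rho and CTRL mice only. Correlations used 100000 two-sided permutations. The scripts were tested on simulated data, drawn with dispersions estimated by edgeR and with 200 genes changed by 1 log2. There 13.2% of the treatment calls of DESeq2 were false, against 4.75% for edgeR and 4.56% for limma-voom. Replicates are separate mice, and all 12 libraries entered the reported fits. The members and gene lists were chosen with earlier results of these data known. Genes were named by rule as members, clock genes that were called or are textbook targets of the positive arm, markers a result turns on, or the 3 nearest patterns of a member.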

Additional observations from a re-analysis of the deposited data

Results flagged for a closer look

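Dbp in CTRL replicate 3 was far below the other CTRL mice, at 6.09 log2 CPM against 6.73 for the nearest of them, a gap of 0.716 of the group's range. Of 26 groups examined this was the one that stood out, and chance alone gives about 1 in 20.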

How the results depend on the processing

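Counts of genes called (243 in the reported fit) were 696 with DESeq2, 9 in 14-month mice only, 17 with Ttr as covariate, 540 with the length and GC trend removed, 541 without the 3 CTRL libraries highest in Ttr, 709 in 12-month mice only, and 64 (without DPAn-6 replicate 3) to 953 (without CTRL replicate 3) with 1 mouse left out. With the trend removed 252 were higher and 288 lower, against 64 and 179. Of the 7 genes, 0 were called in the 14-month mice alone, 0 with the Ttr covariate, 1 in 12-month mice only, and 0 to 3 with 1 mouse left out. Of the 23 other clock genes these counts were 0, 0, 6 and 2 to 6, and 6 without the CTRL libraries highest in Ttr. The log2 fold change of Arntl was 0.33 in 14-month mice only and 0.41 with Ttr, and 0.35 to 0.43 with 1 mouse left out. Bhlhe41 had -0.50, -0.55 and, in 12-month mice only, -0.42, and -0.51 to -0.44 with 1 left out. Neither gene was called in 14-month mice only or with Ttr, and Bhlhe41 was not called in 12-month mice only. Nfil3 was called with DESeq2 (0.48) and with the trend removed (0.47), and had 0.41 to 0.54 with 1 left out. The sign of Clock turned in 14-month mice only (-0.058) and with Ttr (-0.031), with -0.038 to 0.15 when 1 was left out. Bhlhe40 turned with limma-voom (-0.013), Ttr (-0.079) and without the CTRL libraries highest in Ttr (-0.013), with -0.086 to 0.082 when 1 was left out. Ciart had 0.16 in 12-month mice only and -0.33 to -0.16 with 1 left out, and Nr1d2 had 0.014 in 12-month mice only. Per1 had -0.14 in 14-month mice only, -0.019 with the trend removed, -0.061 with trend and block, 0.45 in 12-month mice only (adjusted p = 0.0393 by edgeR), and -0.056 to 0.068 with 1 left out. Of the member pairs, 0 to 1 passed with 1 left out, the 1 being Clock and Bhlhe40 (r = 0.761) without DPAn-6 replicate 1. The cause of these changes was not tested. The alternatives on trend, high-Ttr libraries and 12-month mice were chosen after seeing the data.

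The groups share replicate numbers, and the deviations of same-numbered mice had r from -0.126 to 0.219. The highest r of a DPAn-6 mouse with any CTRL mouse was itself only 0.157 to 0.270. These values therefore cannot tell whether a number marks a shared block. With the replicate block 79 genes and 0 of the 7 members were called (adjusted p = 0.144 for Arntl and 0.0948 for Bhlhe41 by edgeR), 5 of 5 numbered mice correlated best with another number, and the log2 fold change was 0.38 for Arntl, -0.49 for Bhlhe41, -0.013 for Clock, -0.015 for Bhlhe40 and -0.025 for Per1. With the block and the length and GC trend removed together, 169 genes and 2 of the 7 members were called (adjusted p = 0.0286 for Arntl and 0.0498 for Bhlhe41 by edgeR).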

Other observations

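Genes outside the clock lists were described as groups. All 8 of 8 neuronal activity genes had a positive log2 fold change, with a median of 0.27 and 0 called by edgeR, and their summed level was 560 to 1011 CPM in CTRL mice and 882 to 1060 CPM in DPAn-6 mice. Of 8 glucocorticoid-responsive genes, 2 had a positive and 6 a negative log2 fold change, with a median of -0.20. By edgeR 0 were called higher and 2 lower, where 1.14% of all genes tested were called lower. The 2, named after their values were seen, were Plin4 with a log2 fold change of -1.42 and Sult1a1 with -0.68. The 8 markers of striatal neurons all had a positive log2 fold change, with a median of 0.35 and 0 called by edgeR.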
